A study of Homo sapiens with 15 samples.

Results

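The human miRNAs named from miR-4632 to miR-4804 were followed through small RNA sequencing of HEK293 cells. A miRNA belonged to this number series when its number fell within this range, with any letter and either arm. By this rule 274 of the 2424 listed miRNAs were members, from 172 hairpin names. Of these, 105 were 5p arms, 102 were 3p arms and 67 carried no arm in their name. All 274 were listed in the knockdown libraries, and 246 were also listed in the RIP-seq libraries, where 28 were not. No measured value was used to choose them.

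The 15 libraries came from the cell lines FTO1C1, FTO2D4 and FTO3C3, which are clones derived from Flp-In 293 T-Rex (HEK293) cells and which gave 1 library to each of the 5 groups. In the scrambled siRNA group (scr) and the FTO siRNA group, the lines were transfected with 10 nM siRNA for 48 hours. In the input, m6A and IgG groups, RNA of untreated cells was sequenced before precipitation, after precipitation with an anti-m6A antibody, or after precipitation with an IgG isotype control. Every value thus rests on 3 clones of a single parental line, and p-values speak for these clones only. The spread behind them is largely pooled over all miRNAs and is not that of a single member alone.

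A miRNA hairpin is cut from its transcript by DROSHA and then by DICER, and either arm can be loaded onto an Argonaute protein, where the seed (bases 2 to 8) directs it to target transcripts. N6-methyladenosine (m6A) is a methyl mark on adenosines, and FTO is an enzyme that can remove it. The number series studied here was added to miRBase largely from deep sequencing of breast tissue, and most of its members are known only from such reads, without a described function. An antibody against m6A can also hold RNA without the mark, for which the IgG precipitate is the control.

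Total miRNA reads ran from 1991317 to 3876806 in the knockdown libraries and from 186446 (IgG, FTO3C3) to 4973238 (m6A, FTO3C3) in the RIP-seq libraries. Levels are given as RPM, the reads of a miRNA per 1000000 miRNA reads of its library. In the smallest library 3 reads equal 16.1 RPM, and floors of this kind cover counting error only. A single miRNA that is no member, miR-6080, took 15.5 to 28.4% of the reads in input, 41.3 to 47.8% in m6A and 58.0 to 71.6% in IgG libraries. Its count was the same number, 563404, in the m6A and the IgG library of FTO2D4, and how this arose was not tested. The HEK293 miRNA miR-10a-5p stood at 221235 to 306280 RPM in scr libraries. Most markers of other tissues were low but not at 0 in scr libraries, with the liver miRNA miR-122-5p at 5.22 to 7.03 RPM, the neuronal miR-124-3p at 5.77 to 6.53 RPM, the muscle miRNAs miR-1 and miR-206 at 6.53 to 13.6 RPM and the blood cell miRNAs miR-451a, miR-142-3p and miR-142-5p at 4.12 to 13.8 RPM, while miR-133a was not listed. The blood cell miRNA miR-223-3p stood higher, at 44.0 to 68.8 RPM in scr, 406 to 822 RPM in input, 713 to 1853 RPM in m6A and 22.9 to 28.3 RPM in IgG libraries. Many members were measured at the levels of the lower of these markers, and the part of such reads in their counts was not tested.

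Mature sequences were available from RefSeq (GRCh38.p14) for 246 of the 274 members, and those that carry the results are shown 5′ to 3′ with the seed in capitals. The first set was far more abundant in the m6A than in the IgG precipitates.
miR-4653-5p: uCUCUGAGcaaggcuuaacacc
miR-4791: uGGAUAUGaugacugaaa
miR-4668-5p: aGGGAAAAaaaaaaggauuuguc
miR-4648: uGUGGGACugcaaaugggag
miR-4778-5p: aAUUCUGUaaaggaagaagagg
miR-4711-5p: uGCAUCAGgccagaagacaugag
These 6 sequences hold 6, 7, 12, 5, 10 and 8 adenosines in this order, where the median over all members was 5. The mature miR-4653-5p lies at chr7:101159482-101159503 on the plus strand within the bounds of AP1S1. The mature miR-4791 lies at chr3:19314907-19314924 on the minus strand within the bounds of KCNH8, and miR-4668-5p lies at chr9:111932100-111932122 on the plus strand within the bounds of UGCG. Gene bounds were taken without regard to strand or exons, so exon or intron was not analysed here.

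The next set was pulled down by IgG as well, and the last set was lower in both precipitates than in input.
miR-4717-5p: uAGGCCACagccacccaugugu
miR-4673: uCCAGGCAggagccggacugga
miR-4707-3p: aGCCCGCCccagccgagguucu
miR-4684-3p: uGUUGCAAgucgguggagacgu
miR-4699-5p: aGAAGAUUgcagaguaaguucc
miR-4770: uGAGAUGAcacuguagcu
The first 4 of these hold 5, 5, 3 and 4 adenosines and have a G plus C share of 54.5 to 72.7%, against a median of 51.1% over the members. The mature miR-4673 lies at chr9:136519604-136519625 on the minus strand within the bounds of NOTCH1, whereas no coding gene spans the hairpin of miR-4717, whose 5p arm lies at chr16:2274629-2274650 on the plus strand. The mature miR-4770 lies at chrX:6383907-6383924 on the minus strand and outside coding genes.

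As a group, the members made up a small part of the miRNA reads. They took 1.51% ± 0.295 of the reads in scr (SD, n = 3), 1.79% ± 0.288 in FTO siRNA, 0.938% ± 0.150 in input, 3.34% ± 0.460 in m6A and 1.58% ± 0.237 in IgG libraries. With miR-6080 left out of the totals, the share was 1.24% in input, 6.03% in m6A and 4.55% in IgG libraries, so the distance of IgG from input and from m6A depended on this miRNA. The median member stood at 13.5 RPM in scr and 13.8 RPM in input, close to the median of all listed miRNAs (15.1 and 16.4 RPM). In m6A libraries it stood at 55.7 RPM and in IgG libraries at 26.4 RPM, against 51.5 and 26.0 RPM for all listed miRNAs. A mean under 15 RPM in scr was found for 150 of 274 members (54.7%, against 49.7% of all listed miRNAs), and 21 members had 100 RPM or more (7.66%, against 13.8% of all). At least 15 RPM in all 3 scr libraries was reached by 107 members (39.1%, against 42.7% of all). The study asks this of a decreased miRNA, and it is taken here as the limit for an expressed miRNA. The spread between the 3 lines was a median of 21.8% of the mean in scr, 31.2% in input and 35.3% in IgG libraries.

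A few members held most of these reads, with the 10 highest in each library taking 55.4 to 62.4% of all member reads in scr. The most abundant in scr was miR-4695-3p, whose hairpin lies within the bounds of ALDH4A1, at 1466 RPM in FTO1C1, 5103 RPM in FTO2D4 and 3395 RPM in FTO3C3. The next was miR-4755-3p, from within RALY, at 1848, 633 and 3519 RPM in the same order of lines. The lines thus differed several-fold for both, and their means of 3321 ± 1820 and 2000 ± 1449 RPM (SD, n = 3) cannot be ranked. By contrast, miR-4791 at 972 ± 81.8 RPM and miR-4776-5p at 804 ± 154 RPM were even across lines, with overlapping ranges.
miR-4695-3p: uGAUCUCAccgcugccuccuuc
miR-4755-3p: aGCCAGGCucugaagggaaagu
Below them came miR-4668-5p at 517 ± 91.4, miR-4653-5p at 384 ± 112, miR-4699-5p at 305 ± 60.9, miR-4770 at 252 ± 19.7, miR-4758-3p at 180 ± 183 and miR-4699-3p at 168 ± 28.3 RPM. Neighbours in this order overlapped in their ranges over the lines, apart from miR-4776-5p, which lay above miR-4668-5p in every library.

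**Figure D1:**
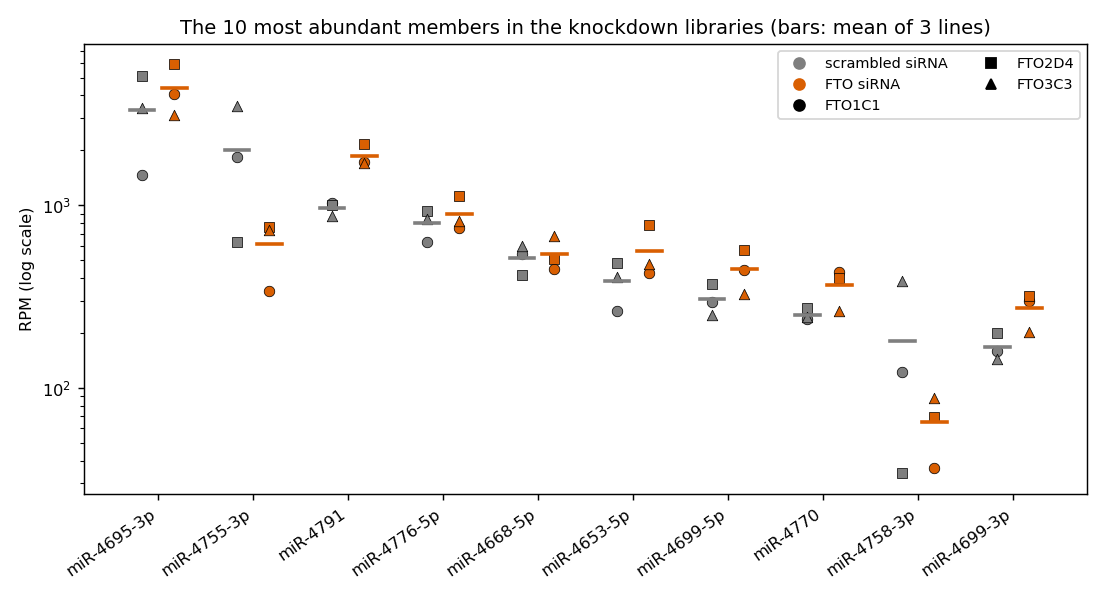
RPM on a log axis for the 10 members with the highest mean in scrambled siRNA libraries, each point being 1 library, with grey for scrambled siRNA, orange for FTO siRNA, a marker shape for each cell line and a bar at the mean of 3 lines. For miR-4695-3p, miR-4755-3p and miR-4758-3p the lines spread far apart within a group, while miR-4791 was tight and higher in all 3 FTO siRNA libraries.

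The order was different in the input of the untreated cells, which was counted in a separate table, so that the levels stand side by side and were not tested against each other. There miR-4693-3p led with 1116, 675 and 356 RPM in FTO1C1, FTO2D4 and FTO3C3, where scr libraries of the same lines held 46.2, 72.6 and 83.9 RPM. A similar gap was seen for miR-4750-5p, with 713 ± 133 RPM in input and 26.2 ± 5.39 RPM in scr (SD, n = 3). In the opposite direction, miR-4695-3p had only 42.6 to 58.9 RPM in input and miR-4755-3p 40.7 to 76.7 RPM. Closer in level were miR-4791 (706 ± 263 RPM in input), miR-4668-5p (402 ± 77.1), miR-4770 (257 ± 69.4) and miR-4792 (171 ± 18.4 RPM in input and 164 ± 29.0 in scr). The other members among the 10 highest in input were miR-4699-5p (670 ± 203 RPM), miR-4768-3p (262 ± 76.0), miR-4776-5p (256 ± 96.7) and miR-4701-5p (194 ± 70.5).

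The knockdown comparison asks whether miRNA levels follow the demethylase FTO. FTO itself is no miRNA and has no row in the counts, so its knockdown could not be checked here. Of the 269 members with enough reads for the test, 12 were higher after FTO knockdown in the quasi-likelihood test of edgeR (Benjamini-Hochberg adjusted p under 0.05 over all miRNAs), which is 4.46%, and 4.97% of all tested miRNAs were called higher. No member was called lower (0.505% of all tested miRNAs were). At an unadjusted p under 0.05, 65 members were higher (24.2%, against 23.9% of all miRNAs) and 2 lower (0.743%, against 2.23%). DESeq2 called 3 members higher (1.09%, against 1.32%) and 1 lower (0.365%, against 2.36%). The median log2 fold change was 0.32 for the members and 0.29 for all miRNAs, so that the members moved no more than miRNAs in general.

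Among the 12, miR-4791 had the smallest adjusted p. It was counted at 1034, 1004 and 879 RPM in scr and at 1724, 2170 and 1708 RPM after FTO knockdown in FTO1C1, FTO2D4 and FTO3C3. All FTO siRNA libraries thus lay above all scr libraries, with a log2 fold change of 0.94 ± 0.14 (SE, edgeR adjusted p = 0.00869) or 0.65 relative to the median of all miRNAs. The arm miR-4763-3p rose from 117, 115 and 140 RPM to 209, 245 and 281 RPM (0.98 ± 0.16, edgeR adjusted p = 0.011). Its partner miR-4763-5p, with 41.5 ± 5.52 RPM in scr and 60.5 ± 10.2 RPM in FTO siRNA libraries, was not called (edgeR adjusted p = 0.123). Likewise miR-4747-3p, from within UHRF1, rose from 81.1, 82.0 and 73.8 RPM to 139, 161 and 159 RPM (0.95 ± 0.18, edgeR adjusted p = 0.0175).
miR-4763-3p: aGGCAGGGgcuggugcugggcggg
miR-4747-3p: aAGGCCCGggcuuuccucccag
miR-4743-3p: uUUCUGUCuuuucugguccag
miR-4777-5p: uUCUAGAUgagagauauauaua
The last of these hold the largest log2 fold changes but few reads. The counts of miR-4743-3p were 20, 16 and 12 reads in scr and 57, 52 and 47 reads after knockdown (1.29 ± 0.25, edgeR adjusted p = 0.0221). The counts of miR-4777-5p were 19, 11 and 9 reads in scr and 39, 31 and 47 reads after knockdown (1.16 ± 0.26, edgeR adjusted p = 0.0361). In sequence they have little in common, since miR-4743-3p holds 1 adenosine and miR-4777-5p holds 9.

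Of the 274 members, 1 (0.365%, against 1.45% of all listed miRNAs) passed the study's rule for an increased miRNA. The rule asks for 15 RPM or more in each library of the knockdown and a mean ratio above 2, and the member was miR-4664-5p. Its 25.3, 20.7 and 19.6 RPM in scr stood against 34.5, 50.8 and 51.6 RPM after knockdown, a mean ratio of 2.15 ± 0.688 (SD, n = 3). Its ratio was 1.36 in FTO1C1 and 2.46 and 2.63 in the other lines, and edgeR called it as well (log2 fold change 1.03 ± 0.23, adjusted p = 0.0348). The rule picked 5 members without the FTO1C1 libraries, 0 without FTO2D4 and 4 without FTO3C3. The share over all miRNAs is not given for these settings, so the counts show only that the rule depends on the lines. The rule for a decreased miRNA (at least 15 RPM in each scr library and a mean ratio under 0.5) picked 0 members, against 0.165% of all listed miRNAs. The remaining 6 called members were miR-4677-5p, miR-4634, miR-4670-5p, miR-4699-3p, miR-4792 and miR-4766-5p, with log2 fold changes from 0.63 to 0.79.

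These calls depended on the scale and on single lines. With TMM factors, which set the median miRNA to about 0, no member was called in either direction. Over all miRNAs 0.885% were called higher and 1.43% lower. At an unadjusted p under 0.05 with these factors, 16 members were higher (5.95%, against 7.12% of all miRNAs) and 11 lower (4.09%, against 8.97%). Without the FTO1C1 libraries 0 members and 0 of all miRNAs were called higher, and without the FTO3C3 libraries 22 members (8.21%, against 8.08%). Without the replicate block, which pairs the libraries of a cell line, 5 members were called (1.86%, against 1.56%).

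**Figure D2:**
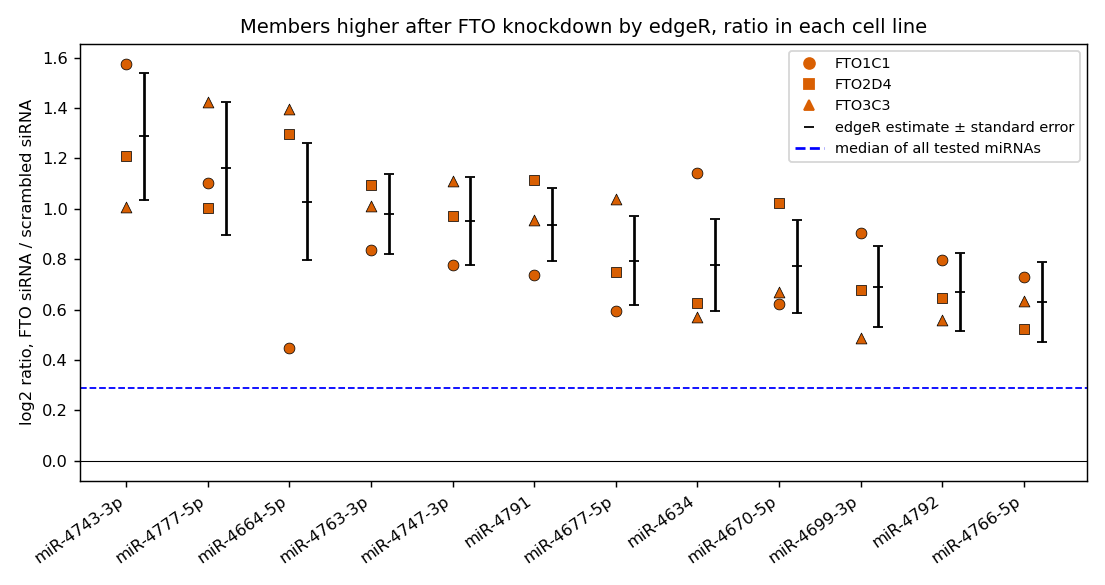
Log2 ratio of RPM in FTO siRNA over scrambled siRNA libraries within each cell line (orange, 1 shape per line) for the 12 members called higher, with the edgeR estimate and its standard error in black and a dashed line at the median of all tested miRNAs (0.29). Every point lies above the dashed line, and the points of miR-4664-5p are the widest apart.

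A different pattern was found for miR-4755-3p and miR-4758-3p. The reads of miR-4755-3p were 6723, 1559 and 7008 in scr and 1188, 2650 and 2834 after FTO knockdown in FTO1C1, FTO2D4 and FTO3C3. Its RPM ratio was 0.185 in FTO1C1 and 0.208 in FTO3C3 but 1.21 in FTO2D4, and the log2 fold change of -1.53 ± 0.45 was not called (edgeR adjusted p = 0.0735). In the same manner miR-4758-3p had ratios of 0.300, 2.03 and 0.230 (-1.05 ± 0.50, edgeR adjusted p = 0.214). The 5p arms of these hairpins were more even, with miR-4755-5p between 19.1 and 22.7 RPM and miR-4758-5p between 6.05 and 10.6 RPM in the 6 knockdown libraries. Without the FTO2D4 libraries, both hairpins were called for a change in arm balance, and 3 members were called lower (1.11%, against 1.63% of all miRNAs). With all lines, none of 96 member hairpins was called for arm balance by limma with Benjamini-Hochberg adjustment (8 at an unadjusted p under 0.05), and 1.01% of all hairpins were.

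The precipitation comparison asks which miRNAs the m6A antibody enriches over IgG. Of 238 members tested, 91 were higher in m6A than in IgG libraries by edgeR (38.2%, against 38.6% of all tested miRNAs), and 4 were lower (1.68%, against 1.27%). The median log2 fold change was 0.73 for the members and 0.83 for all miRNAs, so the members as a group were enriched like other miRNAs. The share of higher calls depended on the scale, and miR-6080 filled a larger part of the IgG than of the m6A libraries. With TMM factors 47 members were higher (19.7%, against 22.1% of all miRNAs) and 32 lower (13.4%, against 14.7%). DESeq2 called 35 higher (14.2%, against 16.6%) and 25 lower (10.2%, against 11.6%). Totals that leave out miR-6080 gave 48 higher (21.9%, against 23.4%) and 26 lower (11.9%, against 13.5%). Without the FTO2D4 libraries, among them the pair with the same miR-6080 count, 45 members were higher (19.6%, against 22.8%) and 1 lower (0.435%, against 0.700%). Under each of these settings the members thus stayed close to miRNAs in general.

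The strongest enrichment was that of miR-4653-5p. It was found at 96.5, 178 and 125 RPM in input, at 2681, 3420 and 3645 RPM in m6A and at 22.9, 31.8 and 37.5 RPM in IgG libraries of FTO1C1, FTO2D4 and FTO3C3. Its ratio of m6A to IgG was 107 ± 9.94 (SD, n = 3), and its log2 fold change was 6.75 ± 0.33 (SE, edgeR adjusted p = 3.66e-06). Next came miR-4791 at 606, 1004 and 509 RPM in input, 2957, 4075 and 6792 RPM in m6A and 62.0, 35.6 and 48.3 RPM in IgG libraries. Its ratio of 101 ± 48.0 varied more between the lines, with a log2 fold change of 6.44 ± 0.41 (edgeR adjusted p = 7.5e-06). For both, all m6A libraries lay above all input libraries and all input libraries lay above all IgG libraries.

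The other members near the top differed in their level before precipitation. The A-rich miR-4668-5p, whose hairpin lies within UGCG, was abundant in input (314, 430 and 461 RPM), rose to 2190, 2794 and 3751 RPM in m6A and stood at 59.3, 53.4 and 113 RPM in IgG libraries (log2 fold change over IgG 5.33 ± 0.32, edgeR adjusted p = 4.64e-06). The less abundant miR-4648, from within LFNG, had 22, 58.2 and 22 RPM in input, 467, 1304 and 583 RPM in m6A and 10.8, 16.5 and 16.1 RPM in IgG libraries (5.76 ± 0.39, edgeR adjusted p = 9.02e-06). In contrast to these, miR-4778-5p was not called higher than input (138, 138 and 170 RPM in input and 195, 139 and 341 RPM in m6A, edgeR adjusted p = 0.238), but IgG held only 10.8, 3.81 and 10.7 RPM (4.67 ± 0.42 over IgG, edgeR adjusted p = 4.45e-05). The low miR-4711-5p, from within FGGY, had 12.1 to 18.0 RPM in input, 100 to 139 RPM in m6A and 5.36 to 8.90 RPM in IgG libraries (3.92 ± 0.42, edgeR adjusted p = 0.00013). The IgG values of these members rest on 1 to 46 reads per library, so their ratios are less certain than their direction. In the contrast with IgG, miR-4648, miR-4778-5p and miR-4711-5p passed the filter on counts only through their m6A libraries, so a call could hardly be missed.

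By the study's rule for enriched miRNAs (at least 100 RPM in the m6A libraries and a mean ratio to IgG of at least 2), 39 members reached the level and 21 were enriched. This was 8.54% of the 246 listed members, against 11.8% of all listed miRNAs. These counts come from the rule as applied here, and the study's own list of enriched miRNAs does not hold all of the 21. The ratio was at least 2 in each line for 18 of the 21, above 10 for 7 and above 100 for 2. Besides those above, the largest ratios belonged to miR-4755-3p (16.5, 18.2 and 3.93 in FTO1C1, FTO2D4 and FTO3C3) and miR-4753-5p (4.84, 14.4 and 10.7). The count of enriched members was 37 with totals that leave out miR-6080 and 12 with TMM factors, where the share over all miRNAs is not given.

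**Figure D3:**
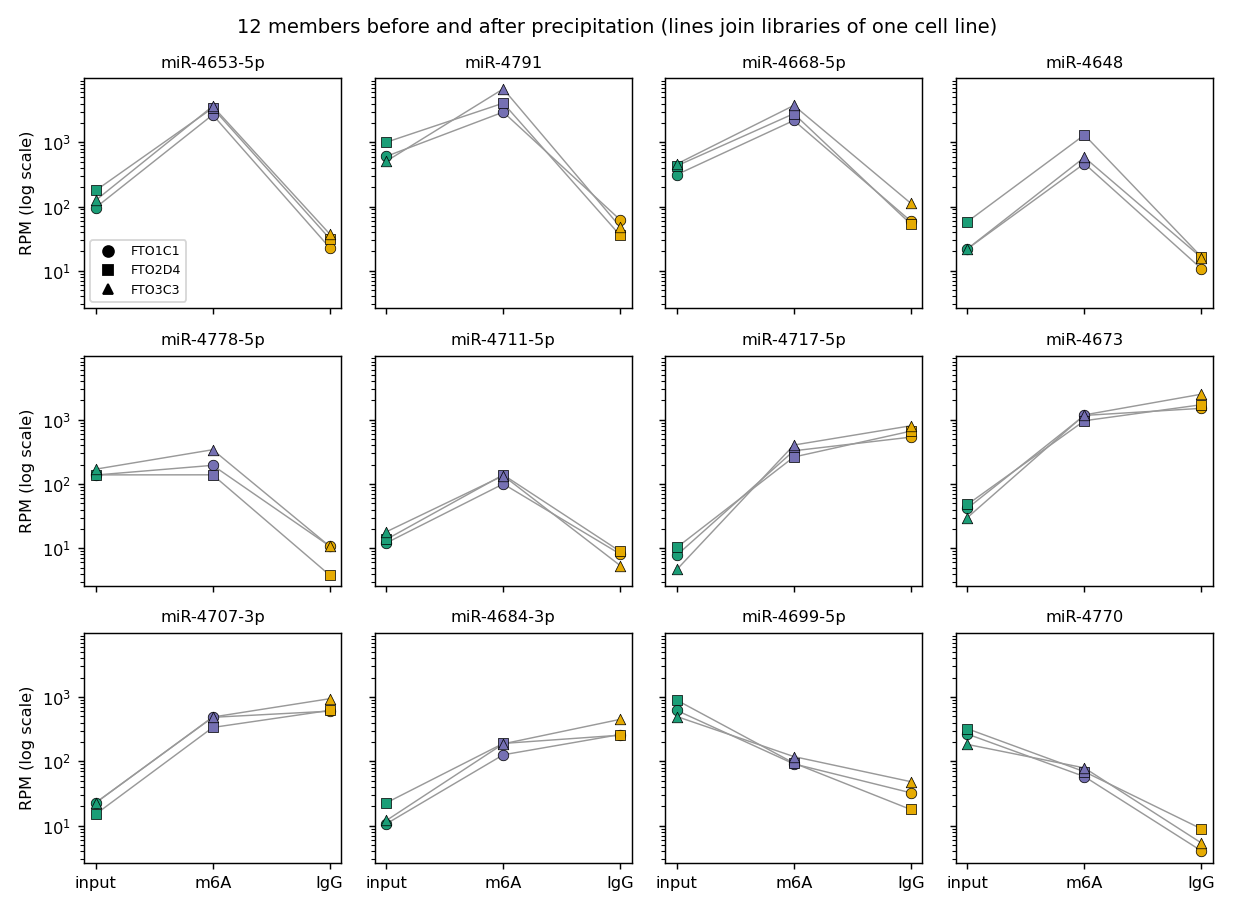
RPM on a log axis in input (green), m6A (violet) and IgG (yellow) libraries for 12 members, with 1 panel per miRNA, 1 shape per cell line and grey lines joining the libraries of a line. From miR-4653-5p to miR-4711-5p the m6A libraries stand above IgG, from miR-4717-5p to miR-4684-3p both precipitates stand above input, and for miR-4699-5p and miR-4770 both stand below input.

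Many members were also carried over into the IgG precipitate. Of 246 members tested, 194 were higher in m6A than in input by edgeR (78.9%, against 66.8% of all tested miRNAs) and 7 were lower (2.85%, against 10.5%). Of 211 members tested, 90 were higher in IgG than in input (42.7%, against 36.8%) and 22 were lower (10.4%, against 21.8%). The m6A and IgG comparisons use the same input libraries, so their calls are not independent. With TMM factors 80 members were higher in m6A (32.5%, against 26.4% of all miRNAs) and 41 lower (16.7%, against 28.2%), and 72 were higher in IgG (34.1%, against 28.8%) and 37 lower (17.5%, against 30.2%). With totals that leave out miR-6080, 209 were higher in m6A (85.0%, against 73.3%) and 3 lower (1.22%, against 6.73%), and 163 were higher in IgG (73.8%, against 62.3%) and 11 lower (4.98%, against 13.8%). The median log2 fold change over input was 2.02 in m6A (1.65 for all miRNAs) and 0.87 in IgG (0.49 for all miRNAs). Without FTO2D4, 4 members were called lower in m6A than in input (1.63%, against 8.28%). Without FTO1C1, 14 were called lower in IgG (6.51%, against 16.8%), as were 14 without FTO2D4 (6.39%, against 17.7%). In the IgG comparison edgeR shared a single spread over all miRNAs, and its p-values are therefore not printed. The calls and standard errors for IgG over input rest on that shared spread.

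Members could thus be higher in m6A than in input without being higher than IgG. Among such members, 75 were called higher than input in both precipitates and not called between them. They made up 36.1% of the 208 members tested in all 3 comparisons, against 32.0% of the 1862 miRNAs tested in all 3. Beyond these, 4 members were higher than input in both and lower in m6A than in IgG (1.92%, against 0.644%). The clearest was miR-4717-5p with 7.81, 10.3 and 4.67 RPM in input, 328, 263 and 403 RPM in m6A and 535, 664 and 805 RPM in IgG libraries of FTO1C1, FTO2D4 and FTO3C3. Its log2 fold change was 5.44 ± 0.50 for m6A over input, 6.44 ± 0.53 for IgG over input and -1.01 ± 0.27 for m6A over IgG (edgeR adjusted p = 0.0157). Against input, miR-4717-5p passed the filter on counts only through the precipitates, so those calls could hardly be missed. The most abundant was miR-4673, from within NOTCH1, with 41.9, 48.0 and 30 RPM in input, 1166, 964 and 1188 RPM in m6A and 1504, 1711 and 2494 RPM in IgG libraries (-0.76 ± 0.26 over IgG, edgeR adjusted p = 0.0462). The other members of this kind were miR-4684-3p (-0.91 ± 0.30) and miR-4671-3p (-1.60 ± 0.40), the latter at only 6 to 44 reads in IgG libraries. Without the FTO2D4 libraries all 4 of these members lost the call, and 1 other member was called lower than IgG (0.435%, against 0.700% of all miRNAs). Leaving out the FTO3C3 libraries, 1 member was called lower (0.424%, against 0.147%).

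Other members gathered in IgG without a called difference to m6A. The arm miR-4707-3p had 22.7, 15.1 and 22.7 RPM in input, 485, 337 and 489 RPM in m6A and 604, 620 and 944 RPM in IgG libraries, a log2 fold change of 5.15 ± 0.49 for IgG over input. The arm miR-4664-3p had 16.9 ± 0.911 RPM in input, 485 ± 186 in m6A and 514 ± 111 in IgG libraries (SD, n = 3). At lower levels miR-4750-3p had 7, 7 and 1 reads in input and 101, 119 and 38 reads in IgG libraries, and miR-4774-3p had 0, 3 and 3 reads in input and 24, 49 and 138 reads in m6A libraries. Both passed the filter on counts against input only through a precipitate, so a call could hardly be missed.

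Only 7 members were lower in m6A than in input. The abundant miR-4699-5p, whose hairpin lies within ACSS3, fell from 619, 894 and 498 RPM to 91.3, 93.9 and 119 RPM in m6A (-2.69 ± 0.42, edgeR adjusted p = 2.48e-06) and stood at 32.4, 17.8 and 48.3 RPM in IgG libraries. Its other arm miR-4699-3p fell from 132, 138 and 72.0 RPM to 17.6, 22.7 and 25.9 RPM (-2.27 ± 0.44, edgeR adjusted p = 4.18e-05). The 18-base miR-4770 fell from 265, 321 and 183 RPM to 57.9, 69.0 and 79.0 RPM in m6A (-1.86 ± 0.41, edgeR adjusted p = 0.00019) and had 3, 7 and 1 reads in IgG libraries. For all of these the input libraries lay above every precipitate. The remaining 4 were miR-4768-3p (-1.37 ± 0.41), miR-4668-3p (-1.16 ± 0.38), miR-4676-3p (-1.01 ± 0.40) and miR-4637. In IgG libraries the largest differences below input were those of miR-4770 (-5.44 ± 0.61), miR-4699-5p (-4.47 ± 0.50), miR-4778-5p (-4.21 ± 0.59), miR-4791 (-3.85 ± 0.48) and miR-4677-5p. Among these, miR-4770 and miR-4778-5p passed the filter on counts only through their input libraries, so a call could hardly be missed. Both miR-4699-5p and miR-4770 were nevertheless higher in m6A than in IgG libraries, by 1.74 ± 0.38 (edgeR adjusted p = 0.00592) and 3.39 ± 0.45 (edgeR adjusted p = 0.000466). For this contrast miR-4770 passed the filter on counts only through its m6A libraries.

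For miR-4770 the counts of a relative have to be considered. All of its 18 bases can be covered by exact matches of at least 7 bases to miR-143-3p, a miRNA of smooth muscle and connective tissue, and the authors assigned reads through such matches.
miR-4770: uGAGAUGAcacuguagcu
miR-143-3p: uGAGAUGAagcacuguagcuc
Both share their seed. In scr libraries miR-4770 had 866, 677 and 486 reads and miR-143-3p 176, 147 and 156 reads, and in m6A libraries they had 33, 94 and 393 against 127, 186 and 661 reads. The counts of the relative were therefore lower than those of miR-4770 in scr and higher in m6A libraries, and how reads were divided between them was not tested.

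The arms of a hairpin are cut from the same molecule, so their ratio within a library does not depend on the scale. In the comparison of m6A with IgG, the balance changed for 23 of 79 member hairpins by limma with Benjamini-Hochberg adjustment (29.1%, against 29.6% of all hairpins), with 18 towards the 5p arm in m6A (22.8% of those tested, against 19.3% of all hairpins). Without the FTO2D4 libraries 3 were called (3.80%, against 5.39%), and without the FTO3C3 libraries 15 (20.3%, against 20.6%). Of the hairpins named for this contrast, miR-4653, miR-4668 and miR-4701 lost their call without the FTO2D4 libraries. The arms of miR-4653 were the farthest apart, with log2 of 5p over 3p reads at 9.26, 6.71 and 6.69 in m6A and at 0.27, 0.72 and 1.58 in IgG libraries (difference 6.69 ± 0.72, limma adjusted p = 0.000473). Its 3p arm had only 2 reads in the m6A library of FTO1C1.

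Arms parted in both directions. For miR-4726 the 3p arm stood at 59.7 ± 10.7 RPM in input and 205 ± 28 RPM in IgG libraries, while the 5p arm stood at 27.6 ± 3.97 RPM in input and 10.1 ± 0.645 RPM in IgG libraries (SD, n = 3). Its log2 balance differed by 4.20 ± 0.44 between m6A and IgG libraries, towards the 5p arm in m6A. In contrast, the balance of miR-4701 moved towards its 3p arm in m6A (-3.58 ± 0.49 against IgG), since miR-4701-5p was alike in m6A and IgG libraries (241 ± 36.1 and 265 ± 39.3 RPM) while miR-4701-3p had 89.3 ± 30.2 RPM in m6A and 6.60 ± 1.38 RPM in IgG libraries. This IgG level of miR-4701-3p lies below the 16.1 RPM that 3 reads make in the smallest IgG library. The balance of miR-4778 differed by 4.48 ± 0.54 and that of miR-4668 by 3.41 ± 0.44, both towards the 5p arm in m6A.

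Against input, 35 of 79 member hairpins changed balance in m6A (44.3%, against 53.3% of all hairpins) and 22 of 54 in IgG (40.7%, against 56.8%). Without the FTO3C3 libraries the m6A count was 22 (29.3%, against 33.8%). With a mean of at least 30 reads on each arm, 11 member hairpins were left for IgG and 10 of them were called (90.9%, against 72.1%), so the order of these shares depended on the limit. The widest change was that of miR-4750 in IgG, with the log2 balance going from 6.78, 7.37 and 9.46 in input to 0.60, 0.60 and 0.63 in IgG libraries (-7.26 ± 0.63). The 3p arm had only 7, 7 and 1 reads in input. In m6A the balance stood at 4.42, 4.40 and 4.31, between input and IgG in every line. The 5p arm of miR-4717 was the minor arm in input and the major arm in both precipitates (4.11 ± 0.47 in m6A and 5.06 ± 0.63 in IgG against input). The balances of miR-4746 (-5.20 ± 0.65) and miR-4684 (-4.03 ± 0.64) moved towards the 3p arm in IgG, as did that of miR-4707 in m6A (-2.89 ± 0.39). Towards the 5p arm moved miR-4676 (3.20 ± 0.39), miR-4646 (3.74 ± 0.48) and miR-4711 (3.58 ± 0.49) in m6A, and miR-4764 (4.19 ± 0.69) in IgG.

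**Figure D4:**
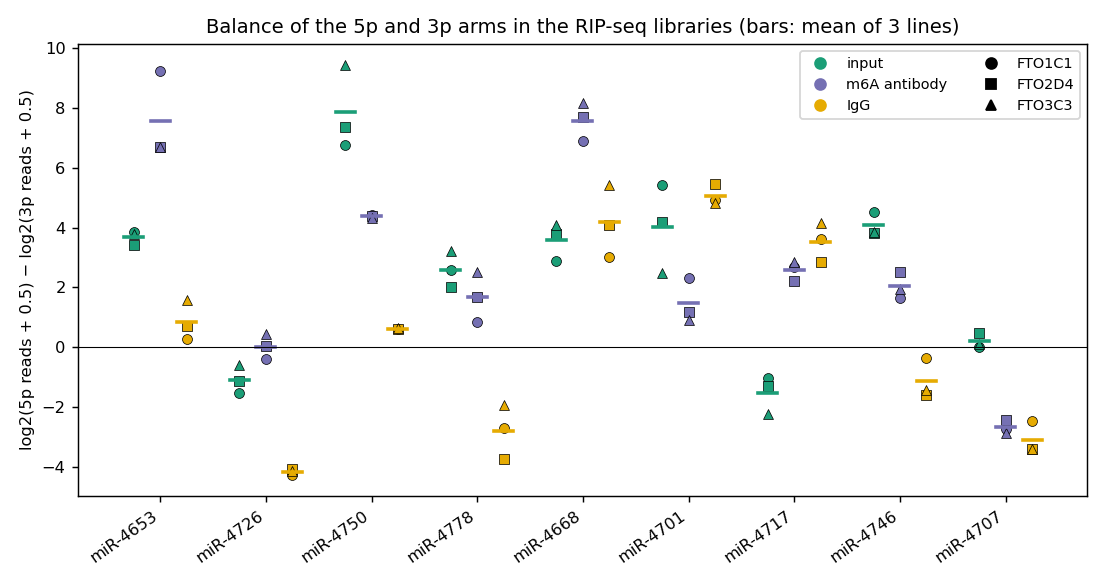
Log2 of 5p reads minus log2 of 3p reads (0.5 added to each) for 9 member hairpins in input (green), m6A (violet) and IgG (yellow) libraries, each point being 1 library with a shape for its cell line and a bar at the mean of 3 lines. The balance of miR-4750 stepped down from input to m6A to IgG, and that of miR-4717 crossed 0 from input to both precipitates.

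Since the antibody binds methylated adenosine, the mature sequences were grouped by their content of adenosine, which the choice of members did not use. Members with 0 to 2, 3 to 4, 5 to 6 and 7 or more adenosines had median log2 fold changes of m6A over IgG of 0.15 (n = 36), 0.37 (n = 61), 0.70 (n = 57) and 1.13 (n = 60). In the other miRNAs the same bins held 0.08, 0.56, 0.99 and 1.40. Spearman's rho between adenosines and enrichment was 0.30 over 214 members and 0.34 over 1589 other miRNAs, given as a description, since all points share the same 6 libraries. Against input, rho was 0.08 for m6A over 222 members and -0.20 for IgG over 191 members, and the median of IgG over input was 1.75 with 0 to 2 adenosines and 0.84 with 7 or more.

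**Figure D5:**
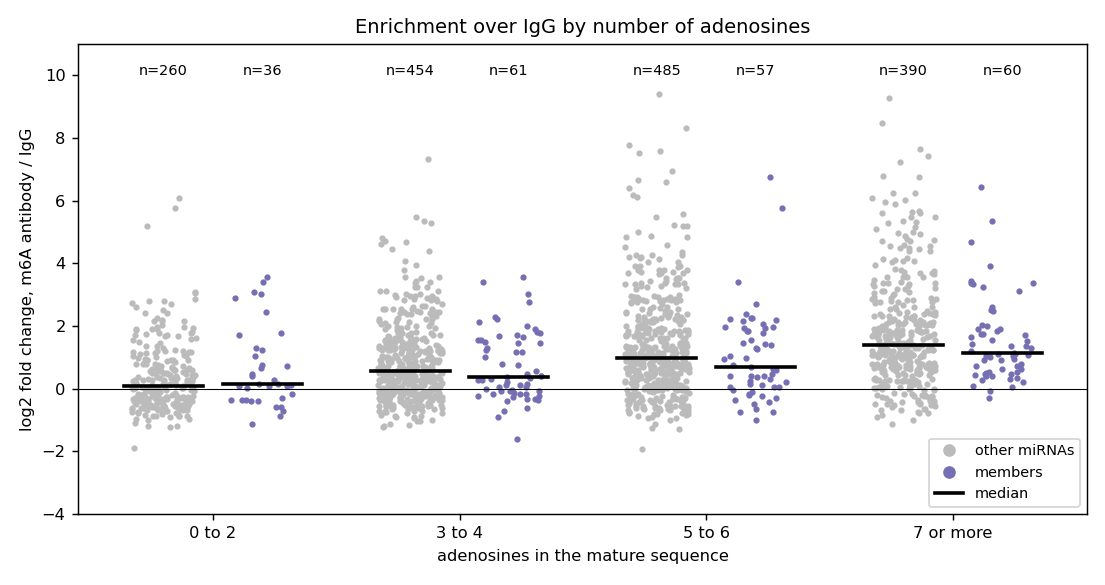
Log2 fold change of m6A over IgG for each tested miRNA with a sequence (members violet, other miRNAs grey, spread sideways at random within a bin) by number of adenosines, with black bars at the medians and n above each column. Medians rose from 0.15 to 1.13 over the bins in members and from 0.08 to 1.40 in other miRNAs, with wide overlap between bins.

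The letters AAC or GAC, the core of the known m6A motif in mRNA, were searched on the mature strand only and were present in 98 of 246 members (39.8%, against 37.4% of all listed miRNAs). The median log2 fold change over IgG was 1.05 in 92 tested members with these letters and 0.46 in 122 without them, against 0.97 and 0.71 in the other miRNAs. The longer GGAC, which is part of GAC matches, was present in 24 members (9.76%, against 9.40% of all), with a median of 1.44 over 22 tested members and 0.68 over 192 without it. In the other miRNAs these medians were 1.18 and 0.79. Of the sequences shown for strong enrichment, miR-4653-5p, miR-4791, miR-4648 and miR-4711-5p hold AAC or GAC, while miR-4668-5p and miR-4778-5p do not. Among those held by IgG, miR-4673 and miR-4684-3p hold them too.

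Members with the same seed were not always alike in precipitation. Among the members, 6 seeds were shared by 2 miRNAs each. The pair miR-4645-5p and miR-4673, chosen here after its values were seen, differed most.
miR-4645-5p: aCCAGGCAagaaauauugu
miR-4673: uCCAGGCAggagccggacugga
Here miR-4673 was lower in m6A than in IgG libraries. By contrast, miR-4645-5p had 45.7, 39.6 and 58.7 RPM in m6A and 1.35, 6.36 and 5.36 RPM in IgG libraries. Its log2 fold change of 3.43 ± 0.56 rests on 1, 5 and 1 IgG reads. It passed the filter on counts only through its m6A libraries, so a call could hardly be missed and is not used here. The sequences differ after the seed, with 8 adenosines in miR-4645-5p and 5 in miR-4673. Other pairs were alike, such as miR-4739 and miR-4756-5p with log2 fold changes over IgG of 2.22 and 1.49, or miR-4667-5p and miR-4700-5p with 1.70 and 2.29.

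Hairpins of the number series lay within the bounds of a coding gene in 121 of 160 cases found in RefSeq (75.6%), against 868 of 1400 other hairpins (62.0%). The member best known from breast tissue, miR-4728, is encoded in an intron of the receptor gene ERBB2 and has its mature arms at chr17:39726496-39726518 and chr17:39726537-39726561 on the plus strand.
miR-4728-5p: uGGGAGGGgagaggcagcaagca
miR-4728-3p: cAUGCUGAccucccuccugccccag
In these cells both arms were low. The 5p arm had 13.2 ± 3.27 RPM in scr and 14.0 ± 2.38 RPM after FTO knockdown, and the 3p arm 7.32 ± 2.54 and 8.30 ± 2.17 RPM (SD, n = 3), and neither was called. In precipitation, miR-4728-5p had 9.94, 7.54 and 5.33 RPM in input, 45.7, 60.2 and 59.1 RPM in m6A and 13.5, 7.63 and 5.36 RPM in IgG libraries (2.51 ± 0.47 over IgG, edgeR adjusted p = 0.00282). The 3p arm was not called between m6A and input (25.7 ± 17.3 and 34.3 ± 5.87 RPM), but was lower in IgG (6.13 ± 1.30 RPM) than in m6A libraries (1.99 ± 0.58, edgeR adjusted p = 0.024). Both contrasts with IgG rest on 1 to 10 IgG reads per library, and both arms passed the filter on counts through their m6A libraries.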

How the data were processed

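Small RNA libraries were prepared by the authors with the TruSeq small RNA kit. Adapter removal by cutadapt used a 4 bp overlap and a 20% error rate, and only reads between 16 and 28 bp went on. The authors then searched the mature entries of miRBase release 20, in which duplicates were merged, for exact stretches of 7 bases or more that together spanned 17 or more. For the knockdown libraries, the transfected siRNAs were added as entries to catch their reads. The deposited values are counts of reads per mature miRNA in 2 tables, without normalization. Since short matches were allowed, reads of near-identical miRNAs can be divided between names.

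Groups were taken from the sample titles. RPM relate a count to the sum of miRNA reads in its library. Each contrast was fitted in edgeR (glmQLFit and glmQLFTest after filterByExpr at 10 reads, the sum of miRNA reads as library size, and a term for the cell line) over all miRNAs of a table, with Benjamini-Hochberg adjustment and a threshold of 0.05. Arm balance was tested with limma on log2((5p + 0.5)/(3p + 0.5)) over all hairpins with a mean of at least 10 reads on each arm. A member that passes a filter on counts through the group where it is high can hardly miss a call, so such counts are to be read against the same share over all miRNAs. The rule for enriched miRNAs replaced an IgG count of 0 by 3 reads. Libraries with the same number come from the same clone, and deviations from the group means, compared within pairs, had correlations of 0.19, 0.12 and 0.16 for scr and FTO siRNA, of 0.01, 0.03 and 0.02 for m6A and IgG, of -0.03, -0.06 and -0.08 for m6A and input and of 0.06, -0.03 and 0.05 for IgG and input. Within each group, libraries differed beyond sampling noise. In edgeR the spread of a single miRNA had 2 degrees of freedom in each contrast. The spread shared over miRNAs added a median of 8.02 for the knockdown, 6.98 for m6A over IgG and 27.2 for m6A over input. The p-values thus rest mostly on the shared spread. On simulated counts edgeR recovered 97.7% of 3-fold changes for the knockdown, 76.2% for m6A over IgG, 71.7% for m6A over input and 69.3% for IgG over input. These changes were placed only in miRNAs with at least 10 expected reads in the smallest library of the contrast. The median member had 6 reads in the smallest IgG library, and the rates do not hold for members below that limit.

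Named were the 10 most abundant members in input and in scr, the 6 called members with the largest change in each direction and comparison, the 8 with the largest ratio to IgG, up to 6 hairpins per arm test, the other arms of these and miR-4728. Outside this rule, miR-4634, miR-4670-5p, miR-4766-5p, miR-4637 and the members with a shared seed were named after their values were seen. Members and lists were chosen with earlier results of these data known. Alternatives were TMM factors, DESeq2, no filter, no replicate block, totals without miR-6080, other limits and leaving out each cell line. Software was Python 3.11.15 with pandas 2.3.3, scipy 1.17.1 and matplotlib 3.10.9, and DESeq2 1.42.0, limma 3.58.1 and edgeR 4.0.16 under R 4.3.3.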

Additional observations from a re-analysis of the deposited data

How the results depend on the processing

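Of 328 values of single miRNAs under the alternatives, 298 kept their direction and their call, 30 kept the direction but lost the call, and none changed direction. The losses were uneven. After knockdown all 6 named members lost the call with TMM factors, and all 6 lost it without the FTO1C1 libraries. For m6A over IgG all 4 members called lower than IgG lost it without the FTO2D4 libraries, and 3 of them without the FTO3C3 libraries. For IgG over input no named member lost it. These members were named for their large called changes, so keeping the call is partly built in. Of 102 values of single hairpins 99 kept the call, and the other 3 lost it for m6A over IgG without the FTO2D4 libraries. Counts were less stable. Without the replicate block 5 members were higher after knockdown (1.86%, against 1.56% of all miRNAs) and 97 for m6A over IgG (40.8%, against 41.3%). There were 199 for m6A over input (80.9%, against 68.0%) and 97 for IgG over input (46.0%, against 38.4%). Leaving out the block moved no count but the first by over 1.5 times. With TMM factors the calls were 0 higher after knockdown, 47 higher and 32 lower for m6A over IgG, 80 and 41 for m6A over input, and 72 and 37 for IgG over input. DESeq2 called 3 higher and 1 lower, 35 and 25, 66 and 38, and 55 higher in the same order. Totals without miR-6080 gave 48 and 26 for m6A over IgG, 3 lower for m6A over input, 163 and 11 for IgG over input, and member shares of 1.24% in input, 6.03% in m6A and 4.55% in IgG libraries. Leaving out 1 cell line at a time gave 0 to 22 higher and 0 to 3 lower after knockdown, 45 to 79 and 1 to 3 for m6A over IgG, 176 to 192 and 4 to 7 for m6A over input, and 63 to 85 and 14 to 24 for IgG over input. After knockdown 0 to 8.21% were higher (against 0 to 8.08% of all miRNAs) and 0 to 1.11% lower (against 0 to 1.63%). For m6A over IgG 19.6 to 32.1% were higher (against 22.8 to 33.0%) and 0.424 to 1.22% lower (against 0.147 to 0.929%). For m6A over input 71.8 to 78.0% were higher (against 59.4 to 65.4%) and 1.63 to 2.86% lower (against 8.28 to 10.2%). For IgG over input 29.3 to 38.8% were higher (against 25.8 to 36.5%) and 6.39 to 11.2% lower (against 16.8 to 22.8%). For arm balance, leaving out 1 cell line gave 0 to 2, 3 to 19, 22 to 44 and 17 to 25 hairpins in this order. As shares these were 0 to 2.06%, 3.80 to 24.1%, 29.3 to 55.7% and 34.7 to 41.7% of those tested. The shares of all hairpins were 0 to 2.30%, 5.39 to 27.8%, 33.8 to 53.0% and 48.5 to 53.2%. With at least 30 reads per arm 10 of 11 were called for IgG over input (90.9%, against 72.1% of all hairpins, where the shares had been 40.7% and 56.8%). At a limit of 30 RPM 48 members were expressed. Increased members were 2 at 10 RPM, 0 with TMM factors, 0 when all 3 ratios had to pass and 0 to 5 without 1 line, and decreased members were 1 with TMM factors, 1 with the geometric mean and 0 to 3 without 1 line. Enriched members were 110 at 15 RPM, 53 at 50 RPM, 12 with TMM factors and 37 with totals without miR-6080, and leaving out 1 line gave 20 to 28. For the expressed, increased, decreased and enriched counts under alternatives, the share over all miRNAs is not given. They show only how the rules depend on the limits. The scale and the line left out are part of each alternative's construction, and no other cause was tested. The smallest IgG library limits ratios to IgG, and members with few reads could have changed by less than these libraries can show.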
